A study of Mus musculus with 17 samples.

Results

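The coenzyme Q biosynthesis genes of the mouse heart were followed in bulk RNA-seq of 17 hearts, each from its own mouse. Of these, 9 carried the Polg hMut genotype (hMut) and 8 were controls (Ctrl). The rule takes them by name as 10 genes of the ubiquinone synthesis pathway, Pdss1, Pdss2, Coq2, Coq3, Coq4, Coq5, Coq6, Coq7, Coq8a and Coq9, out of 56748 genes in the count table, and itself uses no measured value. The hMut mice were homozygous for an inducible Polg allele that Ckmm-cre, driven by a promoter of striated muscle, switches to a proofreading-deficient form of the mitochondrial DNA polymerase POLG. Other cells of the heart are not the target of this cre. Hearts of both groups came from mice 12 to 16 months old, with no experimental treatment. The age of each mouse and the exact control genotype were not given for these libraries. Replicates are separate mice, and each heart is named by its group and replicate number.

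Coenzyme Q, or ubiquinone, is a quinone ring with a long isoprenoid tail that sits in the inner mitochondrial membrane and carries electrons to complex III. It collects them from complex I, complex II and a set of other dehydrogenases, among them those of fatty acid oxidation and pyrimidine synthesis, and its reduced form is also an antioxidant of membranes. The tail is built by PDSS1 and PDSS2, COQ2 joins it to the ring, and a complex of COQ proteins on the matrix face of the membrane then modifies the ring. The heart, which is rich in mitochondria, is one of the organs affected when this pathway is deficient in people.

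Library totals spanned 34425783 to 46486964 counts in the Ctrl group and 32915159 to 40175122 counts in the hMut group. Polg, the targeted gene, was at 34.7 ± 7.31 CPM (counts scaled to equal library size with TMM factors; SD, n = 8) in Ctrl and at 57.9 ± 6.08 CPM (SD, n = 9) in hMut, a log2 fold change of 0.74 (edgeR adjusted p = 0.000448, Benjamini-Hochberg). The share of counts on genes of mtDNA was 23.5% to 30.9% in Ctrl and 15.9% to 23.0% in hMut. Read from Xist and Y-linked counts, 3 Ctrl and 2 hMut hearts were from females. All 13 cardiomyocyte markers were detected, with a summed level of 63014 to 76436 CPM in Ctrl and of 46548 to 74855 CPM in hMut. The markers of atrial cells summed to 1.39 to 2.66 CPM in Ctrl and to 1.93 to 26.8 CPM in hMut.

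None of the 10 coenzyme Q genes passed an adjusted p of 0.05 between hMut and Ctrl hearts by edgeR's quasi-likelihood test, in which 749 of the 16195 genes tested (4.62%) did and 185 (1.14%) were lower in hMut. All 10 genes passed the filter on low counts. The log2 fold change was below 0 for 9 of them, with a median of -0.12 against 0.0023 over all genes tested. At an unadjusted p under 0.05 there were 3 genes, Coq8a, Coq2 and Coq9, each lower in hMut. Over all genes that rule took 4178 (25.8%), of which 1831 (11.3% of the genes tested) were lower. The 3 of 10 were thus close to the share for both directions and above that for lower genes alone, a difference that was not tested. DESeq2, which called 9.61% of all genes, called 0 of the 10, with 4 at an unadjusted p under 0.05 against 26.4% of all genes. Limma-voom with sample quality weights called 1 of the 10, Coq8a, against 12.8% of all genes, with 4 at an unadjusted p under 0.05 against 29.7% of all genes.

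**Figure D1:**
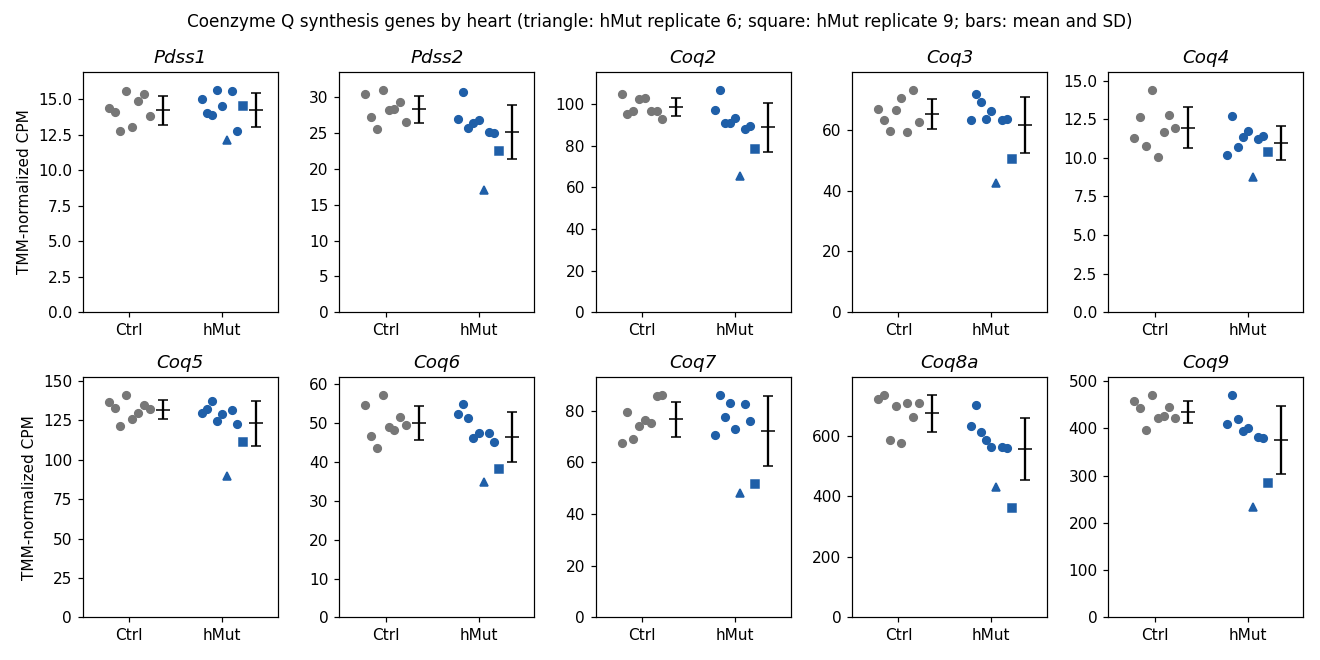
TMM-normalized CPM (y axis, from 0) of each coenzyme Q gene in the 8 Ctrl hearts (grey) and the 9 hMut hearts (blue), with the mean and SD of each group at the right of its points. In 9 of the 10 panels hMut replicate 6 (triangle) is the lowest of the 17 hearts, and in the Coq8a panel hMut replicate 9 (square) is.

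Per length, the 10 genes covered a wide range in the Ctrl hearts. On the TPM scale (counts divided by the gene lengths in the table and scaled to an equal sum per heart), Coq9 was at 300 ± 23.2 and Coq8a at 268 ± 28.8 (SD, n = 8). These 2 levels overlapped between hearts, and Coq9 stood above 98.8% of protein-coding genes. Coq5 followed at 91.3 ± 6.22 TPM and Coq2 at 79.1 ± 6.27 TPM, which also overlapped. Coq3 was at 45.7 ± 4.73 TPM, and its range of 38.0 to 53.7 TPM met neither that of Coq2 above it nor that of Coq6 below it. Coq6 was at 33.5 ± 3.47 TPM and Coq7 at 25.1 ± 2.68 TPM, with overlap. The lowest levels were those of Pdss2 at 10.003 ± 0.924 TPM, Coq4 at 7.38 ± 0.778 TPM and Pdss1 at 7.05 ± 0.617 TPM, in which each neighbour overlapped the next. Both genes of tail synthesis were thus among the 3 with the lowest level per length, and the lipid-binding Coq9 and the kinase-like Coq8a had the highest.

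The tail is made first. Pdss1 (ENSMUSG00000026784, GRCm39 chromosome 2, 22785534 to 22830278, plus strand) and Pdss2 (ENSMUSG00000038240, chromosome 10, 43097482 to 43340878, plus strand) encode the subunits of the prenyl diphosphate synthase that lengthens the isoprenoid chain. Pdss1 ranged from 12.8 to 15.6 CPM in Ctrl (median 14.2) and from 12.1 to 15.7 CPM in hMut (median 14.5). The groups overlapped fully, with 2 hMut hearts below and 2 above every Ctrl heart. Its log2 fold change was 0.00 (95% interval -0.12 to 0.12, SE 0.06), so that a change of over 8.94% upward or 8.21% downward lay outside the interval under this scaling. Pdss2 ranged from 25.6 to 31.1 CPM in Ctrl (median 28.3) and from 17.03 to 30.8 CPM in hMut (median 25.7). In 8 of 9 hMut hearts it lay under the Ctrl median, and in 4 under every Ctrl heart. Its log2 fold change was -0.17 (SE 0.08, 95% interval -0.35 to 0.0010, edgeR adjusted p = 0.196).

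The next step joins ring and tail. Coq2 (ENSMUSG00000029319, chromosome 5, 100802589 to 100823006, minus strand) encodes the prenyltransferase of the inner membrane that attaches the tail to 4-hydroxybenzoate. It ranged from 93.0 to 105 CPM in Ctrl (median 96.7) and from 65.2 to 107 CPM in hMut (median 90.7). Its level was outside the Ctrl range in 7 hMut hearts, with 6 under it and 1, replicate 2, over it. The log2 fold change was -0.15 (SE 0.07, 95% interval -0.30 to -0.0032, edgeR adjusted p = 0.185). Ctrl hearts varied little in this gene, with a coefficient of variation of 4.33% against 13.1% in hMut.

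The 250 bases upstream of the start of each gene's canonical transcript in GENCODE were searched for 4 short motifs on both strands. The reason was the shared sign of 9 of the 10 fold changes under TMM, which depended on the scaling, as given below. The core of the nuclear respiratory factor 1 site, TGCGCA, occurred in the windows of Coq2 and Coq8a and in that of the paralogue Coq8b, and in 6.95% of 21738 windows of protein-coding genes. The 30 bases around each match are shown in GRCm39, 5′ to 3′ on the strand of the gene, because of the 10 genes and Coq8b these held the core, which the capitals mark:
Coq2, chr5:100822155-100822184, minus strand: gcgcgccaccacTGCGCAtgcctgcccgcg
Coq8a, chr1:180023643-180023672, minus strand: ttggctgtgagcTGCGCAcgcggtaagcac
Coq8b, chr7:26932282-26932311, plus strand: aatgagctcacgTGCGCAccgactaacaca
The core began 22 bases before the canonical start of Coq2 (100822150), 30 before that of Coq8a (180023630) and 130 before that of Coq8b (26932424). Other transcripts of each gene start further upstream, so these stretches lie within the gene bounds. An E-box, CACGTG, was found in the windows of Coq8a and Coq8b and in 6.27% of all windows, and in Coq8b it shares 2 bases with the core shown. The half-site of estrogen-related receptors, AAGGTCA (3.93% of windows), occurred for Pdss1, and the composite site of ATF4 with C/EBP proteins, TGATGNAA (3.39% of windows), for none of the 10. No annotated exon lay in the window of Coq2, while those of Coq8a and Coq8b overlapped exons of other transcripts of the same gene. A match of letters is a description of the sequence and not a site of binding.

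Of the enzymes that modify the ring, Coq6 (ENSMUSG00000021235, chromosome 12, 84408431 to 84420570), a ring hydroxylase, ranged from 43.5 to 57.3 CPM in Ctrl (median 49.3) and from 34.8 to 54.9 CPM in hMut (median 47.4). Coq3 (ENSMUSG00000028247, chromosome 4, 21879673 to 21912162), an O-methyltransferase, ranged from 59.2 to 73.2 CPM in Ctrl (median 64.8) and from 42.5 to 71.7 CPM in hMut (median 63.4). In each of these genes only hMut replicates 6 and 9 lay below every Ctrl heart. Coq5 (ENSMUSG00000041733, chromosome 5, 115417725 to 115435031), a C-methyltransferase, ranged from 121 to 141 CPM in Ctrl (median 132) and from 89.7 to 137 CPM in hMut (median 129). Coq7 (ENSMUSG00000030652, chromosome 7, 118108882 to 118132579), a hydroxylase near the end of the pathway, ranged from 67.3 to 86.0 CPM in Ctrl (median 75.9) and from 48.2 to 86.2 CPM in hMut (median 76.1). Both again had 2 hMut hearts, replicates 6 and 9, below every Ctrl heart, and for Coq7 the hMut median was not below that of Ctrl. The log2 fold changes of the 4 genes were -0.11 for Coq6, -0.08 for Coq3, -0.10 for Coq5 and -0.09 for Coq7, each with a 95% interval that held 0. Without hMut replicate 6 alone they were -0.07, -0.03, -0.05 and -0.03, in the same order. Their adjusted p-values in edgeR's test lay between 0.338 for Coq5 and 0.591 for Coq7. The intervals reached down to changes of -17.6%, -16.5%, -15.1% and -19.2% and up to 4.17%, 6.68%, 2.75% and 9.11%, for Coq6, Coq3, Coq5 and Coq7.

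A further group assembles or supports the complex. Coq4 (ENSMUSG00000026798, chromosome 2, 29677505 to 29687947), needed for a stable complex of COQ proteins, ranged from 10.1 to 14.4 CPM in Ctrl (median 11.8) and from 8.79 to 12.7 CPM in hMut (median 11.2). Its log2 fold change was -0.13 (SE 0.08, edgeR adjusted p = 0.281), and 1 hMut heart, replicate 6, lay below every Ctrl heart. Coq9 (ENSMUSG00000031782, chromosome 8, 95564949 to 95581523), a lipid-binding partner of COQ7, ranged from 396 to 470 CPM in Ctrl (median 435) and from 234 to 470 CPM in hMut (median 394). In 5 of 9 hMut hearts it lay below every Ctrl heart. The log2 fold change was -0.22 (SE 0.10, 95% interval -0.43 to -0.0013, edgeR adjusted p = 0.192). The spread of Coq9 was 5.37% in Ctrl and 19.2% in hMut as a coefficient of variation.

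Coq8a (ENSMUSG00000026489, chromosome 1, 179992803 to 180027167, minus strand) encodes an atypical kinase-like ATPase of the inner membrane that supports the complex, and its loss in people causes a recessive ataxia with coenzyme Q deficiency. It ranged from 576 to 735 CPM in Ctrl (median 703) and from 362 to 702 CPM in hMut (median 564). All 9 hMut hearts lay under the Ctrl median and 5 lay below every Ctrl heart. Its log2 fold change of -0.28 (SE 0.10, 95% interval -0.49 to -0.06) was the lowest of the 10 genes, a change of -17.5% with an interval from -29.0% to -4.05%. The adjusted p was 0.114 in edgeR's test and 0.0692 in DESeq2. It passed the threshold without hMut replicate 2 (log2 fold change -0.32, edgeR adjusted p = 0.0448) and in limma-voom with quality weights (-0.22, adjusted p = 0.0380), so the call turned on the choice of fit. Of 16136 genes tested without hMut replicate 2, 1792 passed.

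The lowest values stood in 2 of the hMut hearts. In hMut replicate 6 all 10 genes lay below every Ctrl heart, and in hMut replicate 9 there were 8 such genes, where 28.8% and 26.6% of all genes tested lay below every Ctrl heart in these 2 hearts. In the other 7 hMut hearts there were between 0 and 5. The share over all genes was not computed for these 7 hearts, so their counts cannot be set against it. The mean over the 10 genes of log2 CPM minus the Ctrl mean was -0.59 in hMut replicate 6 and -0.39 in hMut replicate 9. The same mean spanned -0.13 to 0.10 in the other 7 hMut hearts and -0.14 to 0.11 in Ctrl, and these ranges overlap. In hMut replicate 6 the single genes ranged from -0.89 for Coq9 to -0.23 for Pdss1 on that scale, and in hMut replicate 9 from -0.89 for Coq8a to 0.03 for Pdss1. These hearts therefore ordered the genes differently, with Coq9, Pdss2 (-0.73) and Coq7 (-0.67) lowest in the former and Coq8a, Coq9 (-0.61) and Coq7 (-0.56) lowest in the latter. Without the 2 hearts, left out after their values were known, the median log2 fold change of the 10 genes was -0.05, Coq3 (0.01) and Coq7 (0.03) turned above 0, and Coq8a was at -0.16 (edgeR adjusted p = 0.178), with 0 of the 10 genes passing.

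Markers of some cell types moved with these values and those of others did not. The mean of the 13 cardiomyocyte markers, on the same scale, was -0.54 in hMut replicate 6 and -0.55 in hMut replicate 9. Its Ctrl range was -0.135 to 0.093. hMut replicates 3, 4, 5, 7 and 8, at -0.186 to -0.153, also fell below every Ctrl heart. hMut replicates 1 (-0.132) and 2 (0.054) did not. The mean of 76 nuclear-encoded OXPHOS subunits was -0.60 in hMut replicate 6 and -0.51 in hMut replicate 9, against a Ctrl range of -0.088 to 0.093. hMut replicates 5 (-0.146) and 8 (-0.094) were also below that range, and hMut replicate 2 (0.133) was above it. The summed level of 12 immune markers was 2494 CPM in hMut replicate 6 and 874 CPM in hMut replicate 9, against 317 to 548 CPM in Ctrl, and that of 9 fibroblast markers was 2167 and 1696 CPM, against 986 to 1155 CPM. As a mean on the log2 scale above, the immune markers were at 2.21 in hMut replicate 6 and at 0.93 in hMut replicate 9. The Ctrl range of that mean was -0.61 to 0.95, so hMut replicate 9 lay within it. The atrial markers summed to 17.4 CPM in hMut replicate 6 and 26.8 CPM in hMut replicate 9. Endothelial markers summed to 867 CPM in hMut replicate 6 and 1088 CPM in hMut replicate 9, against 772 to 968 CPM in Ctrl. Mural markers were below the Ctrl range of 772 to 1038 CPM in hMut replicate 6 (732 CPM) and above it in hMut replicate 9 (1070 CPM). No marker of these lists was at 0 in every library. In bulk tissue, fewer cardiomyocytes and less RNA of these genes per cardiomyocyte cannot be told apart, and the part of cell composition in the values was not tested.

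**Figure D2:**
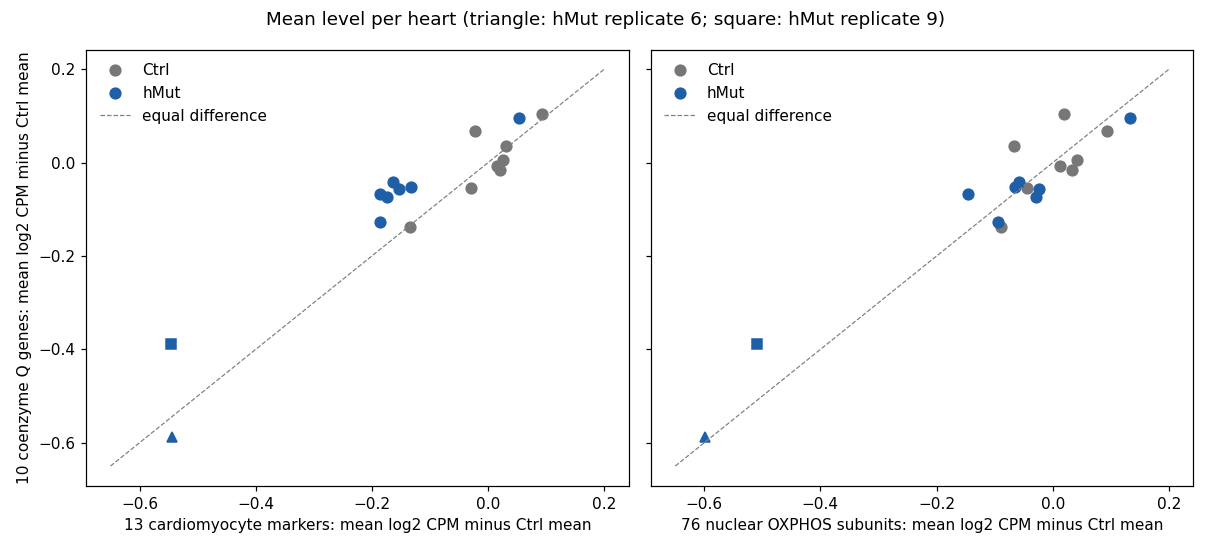
Mean over the 10 coenzyme Q genes of log2 CPM minus the Ctrl mean (y axis) against the same mean over 13 cardiomyocyte markers (left) and 76 nuclear-encoded OXPHOS subunits (right), with 1 point per heart and a dashed line of equal differences. hMut replicate 6 (triangle, -0.59) and hMut replicate 9 (square, -0.39) lie apart from the other 15 hearts on both axes. On the left every hMut heart but replicate 6 lies above the line.

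The coenzyme Q genes were also set against the cardiomyocyte markers within each heart. The mean of the former minus that of the latter was 0.08 ± 0.06 in hMut (SD, n = 9) and 0.00 ± 0.04 in Ctrl (SD, n = 8), with ranges of -0.04 to 0.16 and of -0.04 to 0.09. Set against the nuclear-encoded OXPHOS subunits it was 0.010 ± 0.057 in hMut, within the Ctrl spread of 0.060. Of these subunits 75 of 76 had a log2 fold change below 0 (median -0.15) and 0 passed in edgeR (13 at an unadjusted p under 0.05), with 0 in DESeq2 and 3 in limma-voom. All 13 cardiomyocyte markers had one below 0 (median -0.24), of which 0 passed in edgeR (9 at an unadjusted p under 0.05), 5 in DESeq2 and 7 in limma-voom. Over all genes tested 49.5% had a log2 fold change below 0. An unadjusted p under 0.05 in edgeR was found for 25.8% of all genes, 17.1% of the subunits and 69.2% of the markers. The shares of all genes that passed were 4.62% in edgeR, 9.61% in DESeq2 and 12.8% in limma-voom.

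The sign of the members' fold changes depended on the scaling. When libraries were scaled on the 13 cardiomyocyte markers, the median of all genes moved to 0.24, and the coenzyme Q genes had a median of 0.10 with 8 of 10 above 0 and Coq8a (-0.07) and Coq9 (-0.01) below. Pdss1 then passed, at 0.23 (SE 0.08, edgeR adjusted p = 0.0292), which was close to the median of all genes. Under this scaling 6178 of the 16195 genes tested passed. With library totals in place of TMM, an alternative added after the data were seen, the median of all genes was 0.17 and that of the 10 genes 0.04, and Pdss1 passed at 0.16 (edgeR adjusted p = 0.0429). Of the 16195 genes tested, 5672 passed with library totals. Scaled on the nuclear-encoded OXPHOS subunits the medians were 0.17 and 0.03, with 0 of the 10 genes passing (1 at an unadjusted p under 0.05). Under TMM and these 3 other scalings the median of the coenzyme Q genes minus that of all genes lay between -0.14 and -0.12 on the log2 scale. A change of scaling moves all genes by nearly the same amount, so it could hardly alter this difference. In other fits the difference was -0.07 (limma-voom) and -0.04 (without hMut replicates 6 and 9).

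**Figure D3:**
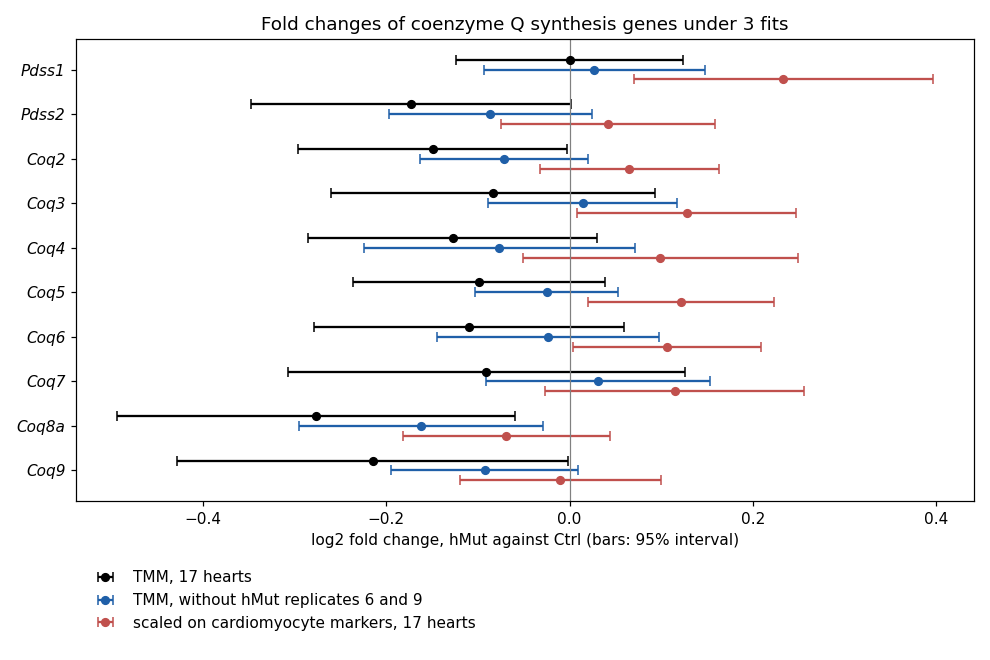
Log2 fold change of each coenzyme Q gene, hMut against Ctrl (x axis), with its 95% interval under TMM normalization of all 17 hearts (black), without hMut replicates 6 and 9 (blue) and with scaling on cardiomyocyte markers (red). Under TMM, 9 of the 10 points lie below 0, and with the marker scaling 8 of 10 lie above 0, while Coq8a and Coq9 lie below 0 in all 3 fits.

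Ratios between 2 genes of the same heart do not depend on the scaling, and 2 such ratios were examined after the values were seen. Coq8b (ENSMUSG00000003762), the paralogue of Coq8a, ranged from 6.02 to 7.14 CPM in Ctrl (median 6.64) and from 5.79 to 11.2 CPM in hMut (median 8.21), with 6 of 9 hMut hearts above every Ctrl heart and 2 below. Its log2 fold change was 0.31 (SE 0.11, edgeR adjusted p = 0.1001), and it passed with the cardiomyocyte scaling (0.58, edgeR adjusted p = 0.0192), with library totals (0.49, edgeR adjusted p = 0.00959) and without hMut replicate 2 (0.36, edgeR adjusted p = 0.0357). In the first 2 of these fits 6178 and 5672 of the 16195 genes tested passed, and in the third 1792 of 16136. Without hMut replicates 6 and 9 Coq8b was at 0.18 (edgeR adjusted p = 0.275). The ratio of Coq8a to Coq8b CPM had a median of 106 in Ctrl (80.7 to 118) and of 70.7 in hMut (32.2 to 117), and lay below every Ctrl heart in 6 of 9 hMut hearts. The log2 ratio differed by -0.58 (two-sided exact permutation test over 24310 assignments, p = 0.0125, adjusted p = 0.0204 over the 2 ratios). Without hMut replicates 6 and 9 the difference was -0.33 (exact permutation p = 0.0387). In males it was -0.75 (5 Ctrl, 7 hMut, exact permutation p = 0.0177) and in females -0.04 (3 Ctrl, 2 hMut, exact permutation p = 0.9, with 0.1 the smallest value possible), and the difference between the sexes, 0.71, had an exact permutation p of 0.139. hMut replicates 6 and 9, which had the lowest ratios (43.0 and 32.2), were both from males. A difference between the sexes and the part of these 2 hearts thus cannot be told apart. The p-values of both ratios belong to pairs picked for their values and are no independent evidence.

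The ratio of Pdss1 to Pdss2 CPM had a median of 0.510 in Ctrl (0.462 to 0.525) and of 0.559 in hMut (0.456 to 0.711). In 7 of 9 hMut hearts it lay above every Ctrl heart and in 1, replicate 2, below them all. The log2 ratio differed by 0.18 (exact permutation p = 0.0204, adjusted p = 0.0204 over the 2 ratios). This ratio too was picked for its values, and the adjustment covers only the 2 picked ratios, so these p-values are no independent evidence. Without hMut replicates 6 and 9 it differed by 0.11, with an exact permutation p of 0.0696 that misses the threshold. Within males the difference was 0.18 (exact permutation p = 0.105) and within females 0.20 (exact permutation p = 0.1, the smallest value possible).

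**Figure D4:**
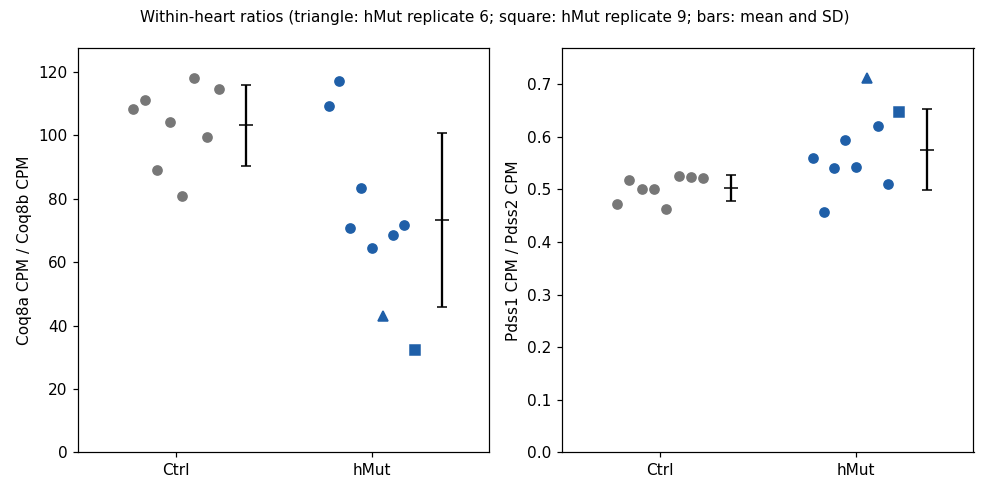
Ratio of Coq8a to Coq8b CPM (left) and of Pdss1 to Pdss2 CPM (right) in each heart, on axes from 0, with the mean and SD of each group beside its points. On the left 6 of 9 hMut hearts lie below the lowest Ctrl heart (80.7), and on the right 7 of 9 lie above the highest Ctrl heart (0.525).

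Other genes of the pathway were taken from 3 lists of 39 genes, of which 33 passed the filter on low counts. None passed in edgeR or DESeq2 (13 and 14 at an unadjusted p under 0.05, the former with 12 lower in hMut, against 25.8% and 26.4% of all genes and 11.3% lower). In limma-voom 2 of the 33 passed, a smaller share than the 12.8% of all genes, namely Fdft1 (-0.26, adjusted p = 0.0331) and Stard7 (-0.14, adjusted p = 0.0458). The median log2 fold change over the 33 was -0.14, and 25 were below 0. Fdx2, Tat, Hpd, Fdps, Prodh2 and Chdh had too few counts to be tested.

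Of 14 genes of late steps, regulation and transport, 11 were tested, with a median log2 fold change of -0.02 and 8 below 0. The 3 with the smallest adjusted p were Coq8b, given above, Coq10b and Stard7. Coq10b, a lipid-binding protein that supports the function of coenzyme Q in respiration, ranged from 26.6 to 53.2 CPM in Ctrl and from 20.8 to 41.5 CPM in hMut, a log2 fold change of -0.41 (SE 0.14, edgeR adjusted p = 0.102). It was below every Ctrl heart in 4 hMut hearts, and it varied widely within both groups. Stard7, a lipid transfer protein linked to the export of coenzyme Q from mitochondria, ranged from 185 to 215 CPM in Ctrl and from 134 to 211 CPM in hMut (log2 fold change -0.17, SE 0.07, edgeR adjusted p = 0.137). Coq10a, named after its values were seen, was below every Ctrl heart in 8 of 9 hMut hearts, with 206 to 232 CPM in Ctrl, 116 to 224 CPM in hMut and a log2 fold change of -0.21 (SE 0.09, edgeR adjusted p = 0.170).

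Of 10 genes of isoprenoid supply, which make the precursors of the tail and of sterols, 9 were tested, with a median log2 fold change of -0.0066 and 5 below 0. Fdft1, the squalene synthase that draws farnesyl diphosphate towards sterols, ranged from 37.7 to 52.1 CPM in Ctrl and from 23.2 to 44.4 CPM in hMut (log2 fold change -0.31, SE 0.11, edgeR adjusted p = 0.0950). It lay below every Ctrl heart in 6 of 9 hMut hearts. Acat2, an acetoacetyl-CoA thiolase, had a log2 fold change of -0.25 (SE 0.09, edgeR adjusted p = 0.117) and Pmvk, the phosphomevalonate kinase, one of -0.21 (SE 0.10, edgeR adjusted p = 0.191).

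Of 15 genes of enzymes that pass electrons to coenzyme Q, directly or by way of another enzyme, 13 were tested. Their median log2 fold change was -0.15 and 12 were below 0, with subunits of the same enzyme counted separately. Dhodh, the pyrimidine synthesis enzyme of the inner membrane, ranged from 14.5 to 19.5 CPM in Ctrl and from 10.04 to 18.01 CPM in hMut (log2 fold change -0.24, SE 0.10, edgeR adjusted p = 0.154). Etfa, a subunit of the electron transfer flavoprotein of fatty acid oxidation, had a log2 fold change of -0.24 (SE 0.11, edgeR adjusted p = 0.169) and Sdhd, a membrane anchor of complex II, one of -0.15 (SE 0.07, edgeR adjusted p = 0.174). The median of the 76 OXPHOS subunits was also -0.15.

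Exons of another annotated gene overlap 8 of the 10 coenzyme Q genes, all but Coq3 and Coq7, in the annotation used. The shared part was 2.02% of the exonic bases of Coq8a, with Cdc42bpa, and reached 26.7% in Coq4, with Trub2, and 26.9% in Coq5, with Dynll1. For Coq8b it was 32.4%. Whether the counting used the strand was not given in the sources used here, so the values of these genes are uncertain to that extent.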

How the data were processed

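Poly(A)-selected RNA of 17 mouse hearts was sequenced. Per the labels and the study's methods, the authors used fastp for read filtering, HISAT2 (2.2.1) for alignment to GRCm39 and featureCounts (2.0.6) for counting. The deposited table holds these counts for each gene without normalization, with gene lengths beside them. Groups came from the sample titles. The submitters' processing notes also name DESeq2 (1.42.0).

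From the counts, all 56748 genes were entered in edgeR's (4.0.16, R 4.3.3) quasi-likelihood test after TMM normalization and filterByExpr, which kept 16195, with group as the only term and Benjamini-Hochberg adjustment at 0.05. SEs were taken from the F statistic as the absolute log2 fold change over its square root. List means used log2 CPM with a prior count of 2. Single ratios were tested by exact permutation over hearts. Upstream windows of 250 bases were read from GRCm39 with GENCODE starts, whose annotation release may differ from the authors'. Alternatives were DESeq2, limma-voom (3.58.1), other normalizations, scalings and filters, sex, the replicate number as a block and each heart left out.

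The members and lists were chosen with earlier results of these data known. Named are all members, Polg, and in each companion list the genes past the threshold in edgeR's fit under TMM and the 3 with the smallest adjusted p. Coq10a is named outside this rule. The values of 1 companion gene are not reported here. The pairwise Spearman correlation of libraries across genes lay between 0.950 and 0.995, and none was a copy of another. Depth left at least 340 counts for every member in every heart. Figures were drawn with matplotlib (3.10.9, Python 3.11.15).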

Additional observations from a re-analysis of the deposited data

How the results depend on the processing

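The number of genes called, 749 in edgeR, was 1556 in DESeq2, 463 with no filter on low counts, 6178 scaled on cardiomyocyte markers, 329 scaled on nuclear-encoded OXPHOS subunits, 5672 with library totals, 2081 in limma-voom and 431 without hMut replicates 6 and 9, and with 1 heart left out it ranged from 395 (without hMut replicate 5) to 1792 (without hMut replicate 2). The members called were 1 with the cardiomyocyte scaling, library totals (Pdss1 in both) and limma-voom (Coq8a), and 0 to 1 with a heart left out. The companion genes called were 6, 6 (all higher in hMut in both) and 2 in the same 3 fits and 0 to 2 with a heart left out. Without hMut replicate 2 these were Coq8b and Acat2 (-0.30, edgeR adjusted p = 0.0427).

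Of the genes called, 185 of 749 were lower in hMut under TMM, 101 of 6178 with the cardiomyocyte scaling, 44 of 329 with the OXPHOS scaling, 122 of 5672 with library totals and 548 of 1556 in DESeq2. Signs turned mainly with the scaling, which moved all genes together. Scaled on cardiomyocyte markers the log2 fold changes were 0.042 for Pdss2, 0.065 for Coq2, 0.13 for Coq3, 0.099 for Coq4, 0.12 for Coq5, 0.11 for Coq6 and 0.11 for Coq7. Scaled on OXPHOS subunits they were 0.056 for Coq3, 0.029 for Coq4, 0.049 for Coq5, 0.032 for Coq6 and 0.042 for Coq7. With library totals, chosen after the data were seen, they were 0.0076 for Coq2, 0.073 for Coq3, 0.034 for Coq4, 0.061 for Coq5, 0.048 for Coq6 and 0.063 for Coq7. Without hMut replicates 6 and 9, Coq3 was at 0.014 and Coq7 at 0.031. Pdss1, at 0.00, crossed 0 with DESeq2 (-0.0028), RLE (-0.0026) and upper-quartile normalization (-0.015), a mean of at least 50 counts (-0.0015) and protein-coding genes outside mtDNA (-0.0064), and with 1 heart left out it ranged from -0.022 to 0.027.

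The replicate numbers do not pair the hearts. Same-numbered hearts correlated between -0.23 and 0.34 in their deviations from the group means, with 1 of 8 pairs over 0.1 and 1 of 8 Ctrl hearts closest to its own number. With the replicate number as a block over numbers 1 to 8, 185 genes and no member were called, against 415 genes without the block over the same hearts, and Pdss1 was at -0.0055 with and -0.0035 without it. The companion genes called stayed at 0 under the block. The ratio of Coq8a to Coq8b kept its sign and its side of the threshold with each heart left out (-0.68 to -0.44), as did that of Pdss1 to Pdss2 (0.15 to 0.23). Both ratios were picked after the values were seen, so this is no independent evidence for either. The ratio of Pdss1 to Pdss2 missed the threshold without hMut replicates 6 and 9 (0.11) and within males. Among females, 3 Ctrl and 2 hMut hearts could not reach the threshold for either ratio. The difference of the Coq8a to Coq8b ratio there was -0.04. With sex as a covariate no member was called. Each member had at least 340 counts in every heart, and counting error was not separated from the spread between hearts.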
